A study of Mus musculus with 5 samples.

Results

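The collagen genes of the mouse uterus were taken as the genes of the deposited count table whose symbol is Col, a number, the letter a and a number, with nothing else. The rule found 44 genes of 27 collagen types among the 28666 listed genes. By the structure of their proteins they fall into 11 fibrillar genes (types I, II, III, V, XI, XXIV and XXVII), 9 network genes (IV, VIII and X), 6 beaded-filament genes (VI), 9 FACIT genes (IX, XII, XIV, XVI, XIX, XX and XXII), 2 multiplexin genes (XV and XVIII), 4 transmembrane genes (XIII, XVII, XXIII and XXV) and 3 others (VII, XXVI and XXVIII). The rule uses gene symbols only, and the classes follow the structure of the proteins.

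RNA of whole uteri was compared between an aged-SP group (n = 2, replicates 1 and 4) and a young-SP group (n = 3, replicates 1, 2 and 4), where SP stands for seminal plasma. All uteri came from ICR females, an outbred stock, aged 6 to 8 weeks, which had no manipulated gene and received seminal plasma without sperm by mating. Their mates were vasectomized C57BL/6 males, 12 to 14 weeks old in the young-SP group and 12 to 18 months old in the aged-SP group. The uteri were collected before implantation, at 3.0 days post coitum by the paper and at 3.5 days after caging by the labels. No unmated females were analysed here, so that each level is relative to the other group only. The libraries are named as separate uterus samples, and the p-values measure the spread between these samples. By the paper, a sample of the young-SP group was excluded as an outlier after the samples had been clustered. The spread is therefore that of the samples kept. By the sample titles the aged-SP group is the smaller one, and the paper gives no reason for this.

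Collagens are proteins of 3 chains wound into a triple helix, which requires a glycine at the start of each triplet of residues. Fibrillar collagens pack side by side into the fibres that carry tension, network collagens form the sheets of basement membranes, type VI forms beaded filaments around cells, and FACIT collagens sit on the surface of fibrils. Multiplexins hang on the outside of basement membranes, and transmembrane collagens are held in the cell surface. In the uterus, stromal fibroblasts are the main source of fibrillar collagen, and the stroma rebuilds its matrix around the time of implantation.

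The fibrillar class can be told from the others in the coding sequences of GENCODE M21 (GRCm38). In the longest coding sequence of each gene, unbroken runs of at least 5 triplets that start with a glycine codon (GGN) were located by a script. The longest run was between 216 and 344 triplets in the 11 fibrillar genes (median 338), and the rest of each fibrillar gene held only 1 or 2 further runs. In the network genes the longest run was 39 to 66 triplets and the helix was broken into 9 to 27 runs (median 23). The 2 multiplexin genes had no run longer than 30 triplets, in 11 and 14 runs, and the 6 beaded genes had 3 to 5 runs, the longest of 37 to 87 triplets. The FACIT genes ranged from 32 to 113 triplets, the transmembrane genes from 40 to 55 and the others from 23 to 75. Among the classes other than the fibrillar, the range of each overlapped that of another class. Stretches of 90 bases are shown here because they display the feature that separates the fibrillar from the network class. Each is read 5′ to 3′ on the coding strand, and the glycine codons that keep the register of the run are in capitals. The fibrillar stretches start with the longest run (codon 168 of Col1a1, codon 164 of Col3a1 and codon 527 of Col11a1, counted from the start codon), and that of the network gene Col4a1 (from codon 148) crosses the end of a run.
Col1a1: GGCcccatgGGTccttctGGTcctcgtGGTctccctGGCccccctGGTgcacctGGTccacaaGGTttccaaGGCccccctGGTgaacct
Col3a1: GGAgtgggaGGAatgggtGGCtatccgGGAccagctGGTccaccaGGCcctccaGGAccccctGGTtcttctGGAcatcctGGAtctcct
Col11a1: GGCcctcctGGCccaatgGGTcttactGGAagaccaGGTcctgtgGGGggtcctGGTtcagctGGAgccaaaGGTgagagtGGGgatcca
Col4a1: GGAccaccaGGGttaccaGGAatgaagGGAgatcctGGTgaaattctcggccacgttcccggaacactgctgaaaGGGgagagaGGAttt

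The 3 fibrillar stretches hold 10 glycine codons each without a break, while the stretch of Col4a1 holds 7 around a break. Col1a1 lies on chromosome 11 (94936224 to 94953042), Col3a1 on chromosome 1 (45311538 to 45349706), Col11a1 on chromosome 3 (114030540 to 114220718) and Col4a1 on chromosome 8 (11198423 to 11312826), all on GRCm38. The positions in the deposited table were those of GENCODE M21 for 44 of the 44 genes.

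**Figure D1:**
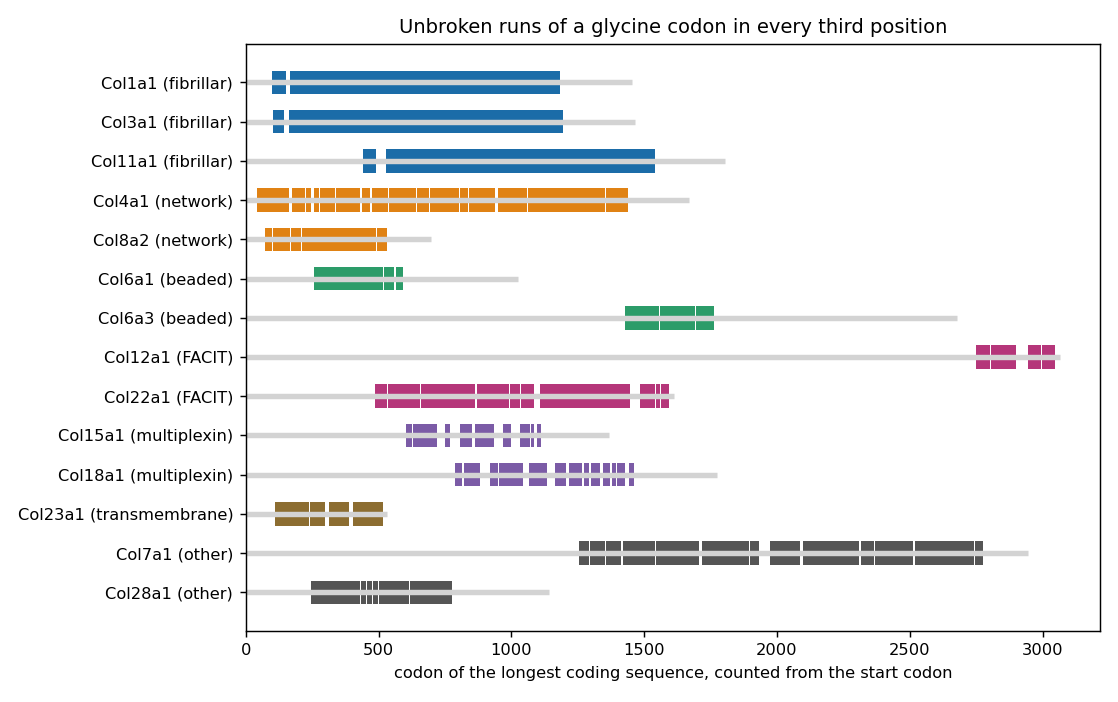
Position of the glycine repeat along the coding sequence of 14 collagen genes. The x axis gives the codon counted from the start codon, grey lines the whole longest coding sequence and coloured blocks the unbroken runs of at least 5 glycine triplets; the fibrillar genes show 1 long block beside 1 short one, and Col4a1, Col7a1, Col15a1 and Col18a1 show many short blocks.

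The total count per library lay between 15071914 and 16728601. Uterine marker genes were present in each library: summed over 10 genes each, those of uterine stroma lay at 5366 to 6745 CPM (counts relative to library size) in the aged-SP group and 5438 to 7878 CPM in the young-SP group, those of epithelium at 1240 to 1390 and 789 to 1623 CPM, and those of myometrium at 11821 to 14675 and 12224 to 17673 CPM. By the same sums, endothelium (786 to 825 and 612 to 1017 CPM), pericytes (942 to 967 and 850 to 1106 CPM), leukocytes (496 to 627 and 433 to 686 CPM), vagina and cervix (17.3 to 19.1 and 16.1 to 27.04 CPM) and ovary and oviduct (144 to 219 and 72.1 to 294 CPM) overlapped between the groups. The lists that did not overlap were mesothelium (629 to 721 against 776 to 1028 CPM) and skeletal muscle (119 to 169 against 257 to 320 CPM), lower in the aged-SP group, and adipose tissue (46.3 to 63.4 against 28.7 to 39.8 CPM) and cartilage (28.8 to 40.4 against 16.7 to 28.7 CPM), higher in it. Each of these 4 results changed without the most abundant gene of its list. The groups overlapped for mesothelium without Cav1, skeletal muscle without Acta1 and adipose tissue without Pck1. The cartilage sum without Sox9 was lower in the aged-SP libraries (6.11 and 6.78 CPM against 7.44, 7.63 and 10.4 CPM). Cav1 itself overlapped between the groups. Of the 10 mesothelium genes, 8 had a log2 fold change under 0 and 2 over 0. DESeq2 called Upk1b and Muc16 of that list lower (adjusted p = 0.00141 and 0.0125) and 0 higher, and edgeR called neither (0.0915 and 0.163). The part of these lists in the collagen values was not tested. Among the defining genes, Myh4 and Pvalb of skeletal muscle, Snorc and Ucma of cartilage, Lep of adipose tissue and Cyp19a1 and Fshr of the ovary were at 0 or not listed. Young-SP replicate 1 stood apart from the other young-SP libraries: with it left out, 578 genes of the whole table were called by edgeR, against 25 with all libraries.

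Most collagens had lower levels after mating with aged males, and the lower level held for all collagen counts together. They took 1.58% and 1.73% of all counts in aged-SP replicates 1 and 4, and 2.44%, 2.98% and 2.92% in young-SP replicates 1, 2 and 4. The groups did not overlap, and the aged-SP mean (1.65% ± 0.105, SD, n = 2) was 0.595 of the young-SP mean (2.78% ± 0.294, SD, n = 3). As a share of the summed FPKM (counts divided by gene length and by library total), which does not favour long genes, collagens took 0.571% and 0.623% against 0.863%, 1.05% and 1.05%, a ratio of 0.604. In whole tissue, fewer collagen-making cells and less collagen RNA per cell cannot be told apart. The uterine stroma markers, with overlapping sums, included Pdgfra below the young-SP group in both aged-SP libraries (347 and 344 CPM against 453, 617 and 560 CPM), and Dcn with overlapping values (1867 and 2391 CPM against 1668, 1862 and 2537 CPM). Pdgfrb lay above the young-SP group in both aged-SP libraries (142 and 140 CPM against 96.8, 122 and 116 CPM). Of the 10 stroma genes, 7 had a log2 fold change under 0 and 3 over 0, with a median of -0.28. Of all tested genes, 49.1% were under 0. At an unadjusted p under 0.05 in edgeR, 3 stroma genes (Pdgfra, Hand2 and Hoxa11) were lower and 1 (Pdgfrb) was higher. By that rule, 9.36% of all tested genes were lower and 9.62% were higher.

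**Figure D2:**
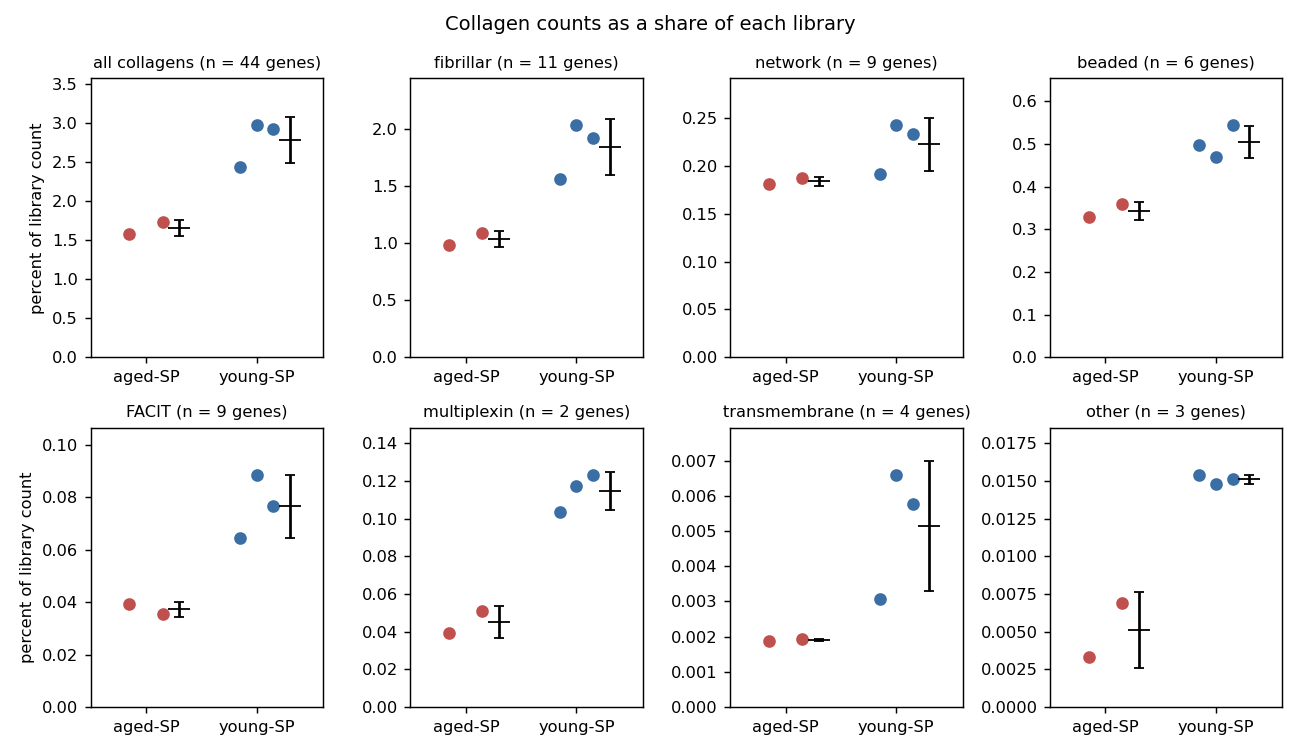
Collagen counts as a percent of the total count of each library, for all 44 genes and for each class. Each point is a library, black marks are the group mean ± SD, and each y axis starts at 0. All aged-SP points lie below all young-SP points in each panel. Relative to the level of the class, the margin is smallest in the network class.

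Of the 44 genes, 40 passed edgeR's filter on low counts (about 0.621 CPM in at least 2 libraries) and were tested. In 0 of them did all libraries of a group lie under that level. Col25a1 and Col28a1 lay under it in aged-SP replicate 4 (0.320 and 0.576 CPM). The aged-SP libraries alone would not have met the filter for these genes. Col2a1, Col9a1, Col10a1 and Col19a1, all best known from cartilage or embryonic tissue, had 3 counts or fewer in each library and were not tested. Of the 40, 36 had a log2 fold change under 0 (aged-SP over young-SP), against 49.1% of all 17013 tested genes. The median log2 fold change was -0.65 over the collagens and 0.0072 over all tested genes. In 26 of the 40, both aged-SP libraries lay below all young-SP libraries, as they did in 19.3% of all tested genes, 1 lay above (against 19.5%) and 13 overlapped. With edgeR's quasi-likelihood test and Benjamini-Hochberg adjustment over all tested genes, 1 collagen gene, Col11a1, passed both thresholds (adjusted p below 0.05 and a log2 fold change beyond 1 in size) as lower and 0 passed as higher, where 0.0647% of all tested genes were called lower and 0.0823% higher. At an unadjusted p under 0.05 in edgeR, 24 were lower and 2 were higher (9.36% and 9.62% of all tested genes). DESeq2's Wald test, which the study used, called 14 collagens lower and 0 higher at the same thresholds, against 1.92% and 1.69% of the 17536 genes with an adjusted p. Without the fold threshold DESeq2 put 21 collagens under an adjusted p of 0.05 as lower and 0 as higher (3.89% and 3.69%). The count of edgeR's calls rested on single libraries: it was 9 without young-SP replicate 1, 2 without aged-SP replicate 4 and 0 without each of the other 3 libraries in turn, while DESeq2's count lay between 10 and 13.

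**Figure D3:**
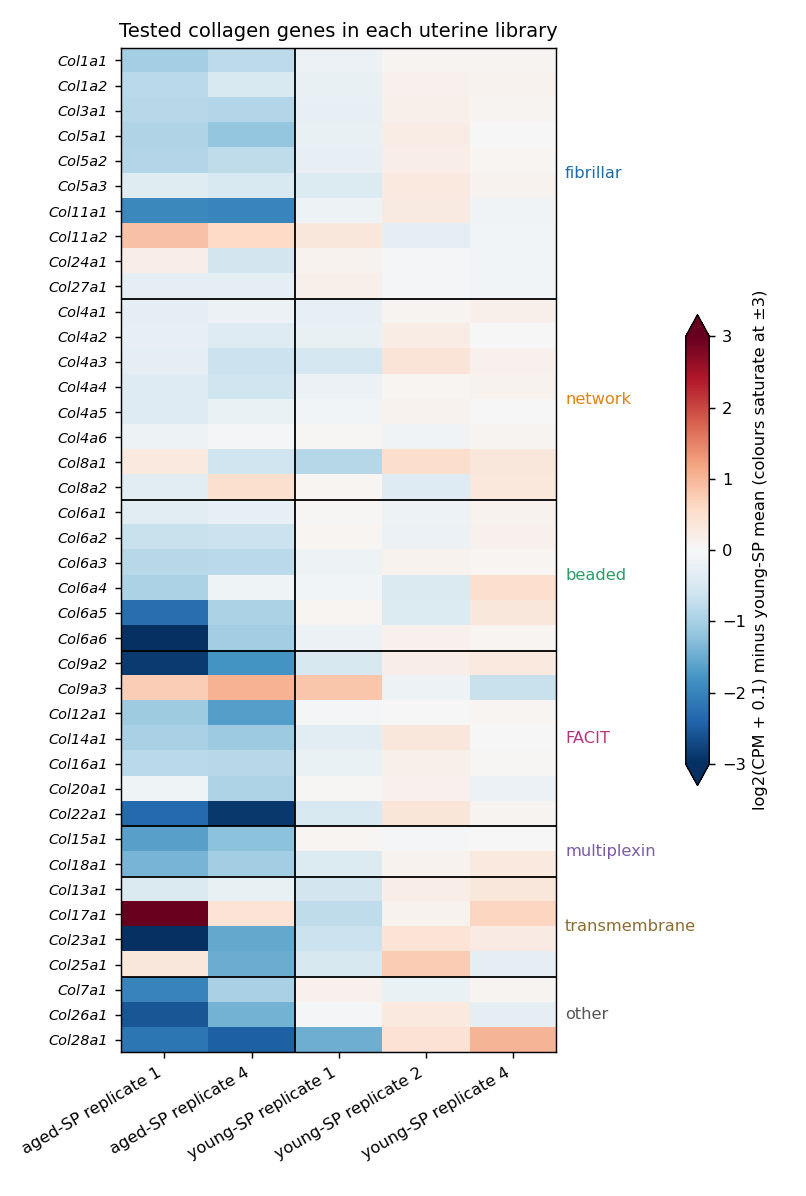
Level of the 40 tested collagen genes in each library, by class. Colours give log2(CPM + 0.1) minus the mean of the 3 young-SP libraries, blue for lower and red for higher; most genes are blue in both aged-SP columns, and Col17a1, Col11a2 and Col9a3 are red there.

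The libraries of a group were not alike. Over the 40 genes, the median difference from the young-SP mean in log2 CPM was -0.81 and -0.76 in aged-SP replicates 1 and 4, and -0.18, 0.12 and 0.084 in young-SP replicates 1, 2 and 4. Young-SP replicate 1 was the lowest young-SP library in 26 of the 40 genes, which it was in 37.6% of all tested genes. It therefore lay nearest to the aged-SP group, and without it the median log2 fold change of the collagens was -0.74.

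The fibrillar class made up 65.2% of all collagen counts and lay at 0.985% and 1.09% of all counts in the aged-SP libraries against 1.56%, 2.04% and 1.92% in the young-SP libraries, a ratio of means of 0.563. Of its 10 tested genes, 9 were lower, 6 of them at an unadjusted p under 0.05, and the median log2 fold change was -0.73. The shares of all tested genes to set beside the class counts, here and below, are those given above. They were 9.36% (lower at that p), 19.3% (all aged-SP below all young-SP libraries) and 1.92% (called lower by DESeq2). Col1a1, Col1a2 and Col3a1, which encode the chains of types I and III, alone took 57.5% to 62.9% of the collagen counts of a library. Col3a1, the type III chain of elastic tissues, had the highest level per length of all members (FPKM 431 ± 7.57, SD, n = 2, against 793 ± 118, SD, n = 3). In CPM it was at 4336 and 4193 in the aged-SP libraries and at 6540, 8554 and 8168 in the young-SP libraries. The groups were apart, and the log2 fold change was -0.86 ± 0.14 (adjusted p = 0.0760 in edgeR and 1.54e-05 in DESeq2; here and below ± after a log2 fold change is its standard error from edgeR).

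Col1a1, the main chain of type I collagen, was at 2412 and 2869 CPM in the aged-SP libraries and at 4382, 5193 and 5232 CPM in the young-SP libraries. Its partner chain Col1a2 was at 2426 and 3054 CPM against 3637, 4574 and 4502 CPM. Both genes had all aged-SP libraries below all young-SP libraries, with log2 fold changes of -0.90 (adjusted p = 0.0734 in edgeR) and -0.63 (adjusted p = 0.136 in edgeR). By DESeq2's adjusted p alone both were lower (9.78e-07 and 0.0106), without reaching the fold threshold.

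Col11a1, a minor fibrillar chain that sets the diameter of fibrils and is best known from cartilage, was the collagen called by both tools. It was at 10.2 and 9.85 CPM in the aged-SP libraries and at 34.8, 46.8 and 36.4 CPM in the young-SP libraries. The aged-SP mean was 25.5% of the young-SP mean, a log2 fold change of -1.97 ± 0.18 with an adjusted p of 0.0484 in edgeR and 1.72e-16 in DESeq2. Its log2 fold change lay between -2.06 and -1.83 over all settings tried, but the call was lost in 6 of them: with limma-voom (adjusted p = 0.0559), with a replicate block (0.148 in edgeR) and without each library other than young-SP replicate 1 (0.114 to 0.240 in edgeR). Col11a2, its partner chain in cartilage, went the other way, at 6.77 and 5.63 CPM against 4.69, 3.01 and 3.47 CPM. It was the 1 tested collagen whose aged-SP values both exceeded all 3 young-SP values (log2 fold change 0.73, adjusted p = 0.233 in edgeR). Of the 4 tested cartilage markers, Hapln1 lay below the young-SP group (1.15 and 0.895 CPM against 5.13, 5.08 and 7.28 CPM). Its log2 fold change was -2.50 (adjusted p = 0.0674 in edgeR and 1.02e-06 in DESeq2). Sox9, Comp and Chad lay above the young-SP group in both aged-SP libraries (log2 fold changes 1.14, 1.56 and 0.77, adjusted p = 0.275, 0.170 and 0.299 in edgeR). DESeq2 called Hapln1 lower and 0 cartilage markers higher.

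The type V chains take part in starting type I fibrils. Col5a1 was at 257 and 213 CPM in the aged-SP libraries and 413, 559 and 480 CPM in the young-SP libraries. It was called lower by DESeq2 (adjusted p = 5.41e-06) and not by edgeR (log2 fold change -1.04, adjusted p = 0.0760). Col5a2 was at 423 and 460 CPM against 657, 883 and 800 CPM (log2 fold change -0.82, adjusted p = 0.0887 in edgeR). In both the groups were apart. The exons of Col5a1 overlap genes on the opposite strand over 2.50% of their bases. The third type V gene, Col5a3, overlapped between the groups, and with Col24a1 and Col27a1 it had log2 fold changes between -0.45 and -0.13.

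The network class stood closest to no difference. It took 0.181% and 0.188% of all counts in the aged-SP libraries and 0.192%, 0.243% and 0.234% in the young-SP libraries, a ratio of 0.827, with a median log2 fold change of -0.26. Of its 8 tested genes 7 were lower, 2 of them at an unadjusted p under 0.05 (9.36% of all tested genes). In 3 both aged-SP libraries lay below all young-SP libraries (19.3% of all tested genes), and 0 were called by either tool. With 8 genes, these counts are not read as a result about the class. Col4a1 and Col4a2, which form the common basement membrane network, were its most abundant genes. Col4a1 was at 898 and 955 CPM in the aged-SP libraries and at 918, 1143 and 1212 CPM in the young-SP libraries, and the groups overlapped. Col4a2 was at 541 and 492 CPM against 550, 746 and 643.5 CPM. Their log2 fold changes were -0.24 ± 0.14 and -0.32 ± 0.15 (adjusted p = 0.423 and 0.321 in edgeR).

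Col4a5 and Col4a6, the chains of smooth muscle basement membrane, were at 220 and 254 CPM against 274, 310 and 287 CPM and at 134 and 142 CPM against 152, 138 and 158 CPM. Col4a3 and Col4a4, the chains best known from kidney and lung, were under 20 CPM in each library, at 6.89 and 5.31 CPM against 5.82, 11.05 and 9.21 CPM for Col4a3 and at 11.5 and 10.04 CPM against 13.4, 15.8 and 16.4 CPM for Col4a4. Of these 4 chains, Col4a4 and Col4a5 had groups that did not overlap. The short-chain network genes of type VIII overlapped, and the direction of both depended on the libraries kept. Col8a1 was at 4.41 and 2.37 CPM against 1.94, 5.20 and 4.61 CPM, and Col8a2 at 11.97 and 20.9 CPM against 15.7, 11.5 and 18.8 CPM.

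The beaded class, type VI, took 18.9% of the collagen counts and lay at 0.328% and 0.359% of all counts against 0.498%, 0.471% and 0.545%, a ratio of 0.681. All 6 of its genes were tested and lower, 5 of them at an unadjusted p under 0.05, with a median log2 fold change of -0.75. The 3 chains of the common type VI heterotrimer did not move by the same amount. Col6a1 was at 1499 and 1615 CPM in the aged-SP libraries and at 1971, 1725 and 2043 CPM in the young-SP libraries (log2 fold change -0.30 ± 0.11). Col6a2 was at 1173 and 1193 CPM against 1928, 1640 and 2044 CPM (log2 fold change -0.66 ± 0.12). Col6a3, the long chain, was at 508 and 517 CPM against 811, 973 and 951 CPM (log2 fold change -0.83 ± 0.11). The groups were apart for all 3 chains, with adjusted p between 0.0734 and 0.239 in edgeR, and DESeq2 put Col6a2 and Col6a3 under an adjusted p of 0.05 (0.000345 and 1.83e-07).

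The chains that can replace Col6a3 in type VI, Col6a4, Col6a5 and Col6a6, are neighbours on chromosome 9. Col6a6 was at 7.98 and 30.96 CPM against 55.8, 69.6 and 66.0 CPM, and Col6a5 at 2.48 and 6.40 CPM against 12.95, 9.22 and 15.8 CPM. Both were called lower by DESeq2 (adjusted p = 0.00973 and 0.0205) and not by edgeR (0.197 and 0.184), and in both aged-SP replicate 1 was the lowest library. The log2 fold change of Col6a6 moved from -1.71 to -1.05 without aged-SP replicate 1 and to -2.997 without aged-SP replicate 4, and that of Col6a5 from -1.51 to -2.35 without aged-SP replicate 4. Over all settings that of Col6a5 ran from -2.35 to -0.98. Col6a5 and Col6a6 share 3.48% and 3.69% of their 50-base stretches with each other, which leaves that part of their counts uncertain. Col6a4 overlapped between the groups (log2 fold change -0.53).

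The FACIT class made up 2.62% of the collagen counts and lay at 0.0392% and 0.0353% of all counts against 0.0646%, 0.0887% and 0.0765%, a ratio of 0.486. Of its 7 tested genes 6 were lower, 5 at an unadjusted p under 0.05, and 4 were called lower by DESeq2. Col12a1 and Col14a1 encode the FACIT chains that bind type I fibrils in connective tissue. Col12a1 was at 75.9 and 50.2 CPM in the aged-SP libraries and at 151, 161 and 164 CPM in the young-SP libraries (log2 fold change -1.33 ± 0.19, adjusted p = 0.0734 in edgeR and 1.41e-07 in DESeq2). Col14a1 was at 135 and 124 CPM against 209, 334 and 266 CPM (log2 fold change -1.05 ± 0.21, adjusted p = 0.1004 in edgeR and 0.000221 in DESeq2). Col16a1, the FACIT gene with the highest level per length, was at 169 and 166 CPM against 261, 332 and 304 CPM (log2 fold change -0.83 ± 0.13), and all 3 had groups that did not overlap.

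Col22a1 and Col9a2 had the largest differences of the FACIT class. Col22a1, the collagen of junctions between muscle and matrix, was at 2.72 and 1.79 CPM in the aged-SP libraries and at 10.2, 18.1 and 14.95 CPM in the young-SP libraries (log2 fold change -2.67 ± 0.35, adjusted p = 0.0734 in edgeR and 1.52e-09 in DESeq2). Of the 6 tested skeletal muscle genes, Acta1 had groups that did not overlap (66.1 and 82.6 CPM against 157, 233 and 223 CPM) and the other 5, Actn3, Ckm, Mylpf, Tnni2 and Tnnt3, overlapped (log2 fold changes -0.47 to 0.21). The part of muscle tissue in the level of Col22a1 was not tested. Col9a2, a chain of type IX collagen of cartilage, was at 1.15 and 2.56 CPM against 6.51, 10.3 and 11.1 CPM. Its log2 fold change was -2.33 ± 0.45 (adjusted p = 0.0952 in edgeR and 3.92e-05 in DESeq2), and -3.01 without aged-SP replicate 4. Over all settings its log2 fold change ran from -3.01 to -1.86. Its partner Col9a1 was not above 3 counts in any library. The other chain of type IX, Col9a3, had a log2 fold change of 0.80 with overlapping groups (adjusted p = 0.442 in edgeR), and 6.07% of its exon bases lie under the opposite gene Tcfl5. Col20a1 overlapped (log2 fold change -0.48).

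Both multiplexin genes had log2 fold changes under -1 and were called lower by DESeq2. The class took 0.0390% and 0.0510% of all counts in the aged-SP libraries and 0.104%, 0.117% and 0.123% in the young-SP libraries, a ratio of 0.392. Col15a1, found between basement membranes and the fibrils around vessels and muscle, was at 210 and 280 CPM against 680, 633 and 650 CPM. Its log2 fold change of -1.42 ± 0.15 had the second smallest adjusted p of the collagens in edgeR (0.0566) and passed in DESeq2 (7.92e-15), and over all settings the adjusted p ran from 7.92e-15 to 0.214. Col18a1, the collagen of basement membranes from which endostatin is cut, was at 184 and 232 CPM against 364, 516 and 592 CPM (log2 fold change -1.24 ± 0.24, adjusted p = 0.0957 in edgeR and 4.97e-05 in DESeq2). The summed endothelial and myometrial markers overlapped between the groups, as given above. In each of these lists of 10 genes, 1 lay below the young-SP group in both aged-SP libraries (Emcn and Acta2) and 0 lay above. Of all tested genes, 19.3% lay below and 19.5% above. The part of these tissues in the levels of Col15a1 and Col18a1 was not tested.

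**Figure D4:**
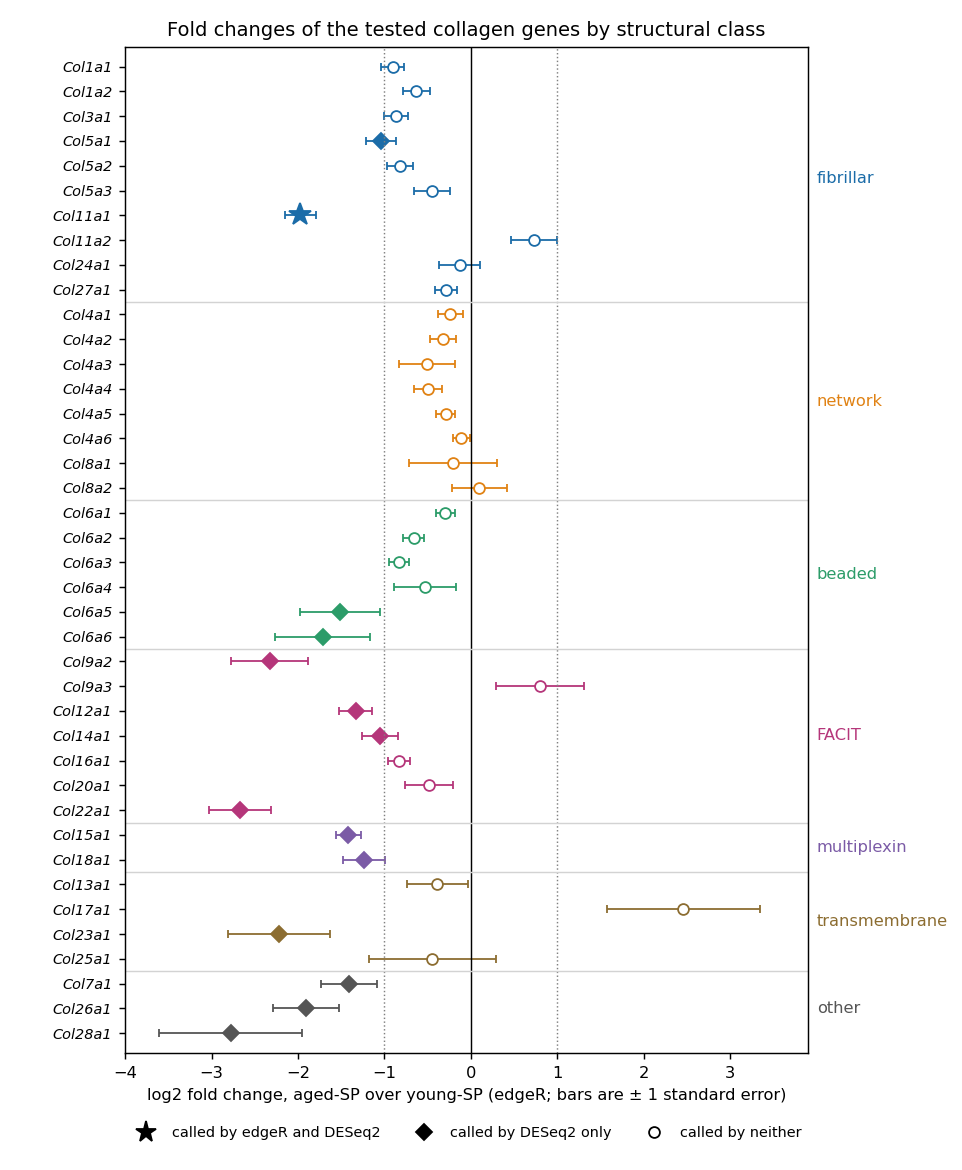
Log2 fold change (aged-SP over young-SP) of the 40 tested collagen genes with ± 1 standard error from edgeR, by class. A star marks the gene called by both tools, diamonds the 13 called by DESeq2 alone, and dotted lines a log2 fold change of 1 in size; no network gene reaches the line, and both multiplexin genes and all 3 genes of the last class lie past it.

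The transmembrane class was the least expressed, at 0.165% of the collagen counts, and its genes differed from each other. Col23a1, a transmembrane collagen found in epithelia, was at 4.65 and 15.1 CPM in the aged-SP libraries and at 27.8, 58.4 and 51.9 CPM in the young-SP libraries. It was called lower by DESeq2 (adjusted p = 0.000604) and not by edgeR (log2 fold change -2.22, adjusted p = 0.148), and its log2 fold change was -1.61 without aged-SP replicate 1 and -3.30 without aged-SP replicate 4. Col17a1, the hemidesmosomal collagen of stratified epithelium, had the largest positive log2 fold change of all members (2.46 ± 0.88, with an adjusted p of 0.231 in edgeR and 0.0655 in DESeq2). That value came from 1 library: Col17a1 had 180 counts in aged-SP replicate 1, 22 in aged-SP replicate 4, and 9, 19 and 25 in the young-SP libraries, and without aged-SP replicate 1 its log2 fold change was 0.33. Among the stratified epithelium genes of the vagina and cervix list, Krt5 and Krt14 were at most 0.334 CPM in any library, Sbsn (8.04 and 9.47 CPM against 4.50, 4.49 and 6.81 CPM) and Krt1 (at most 0.363 CPM) lay above the young-SP group, and Krt10 lay below it (2.96 and 4.03 CPM against 9.26, 5.56 and 14.95 CPM). Their part in the level of Col17a1 was not tested. Col13a1 was at 2.12 and 2.43 CPM against 1.94, 3.31 and 3.67 CPM, and Col25a1 had at most 32 counts in a library, and both overlapped.

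The 3 remaining genes had groups that did not overlap, and all 3 were called lower by DESeq2. Col7a1, which forms the anchoring fibrils below epithelia, was at 25.99 and 53.5 CPM against 115, 91.0 and 111 CPM (log2 fold change -1.41 ± 0.32, adjusted p = 0.119 in edgeR and 0.000412 in DESeq2). Col26a1, first described in testis and ovary, was at 6.65 and 14.97 CPM against 39.2, 48.8 and 33.3 CPM (log2 fold change -1.91 ± 0.38, adjusted p = 0.102 in edgeR and 2.16e-05 in DESeq2). Without aged-SP replicate 4 the log2 fold change was -2.60 for Col26a1 and -2.02 for Col7a1. Over all settings it ran from -2.60 to -1.44 for Col26a1 and from -2.02 to -0.99 for Col7a1. Col28a1, best known from peripheral nerve, was near the floor, with 12 and 9 counts against 20, 83 and 111 counts (log2 fold change -2.78 ± 0.83, adjusted p = 0.175 in edgeR and 0.0104 in DESeq2), and young-SP replicate 1 lay closer to the aged-SP libraries than to the other young-SP libraries. The class as a whole lay at 0.337 of the young-SP mean, with all 3 young-SP libraries between 0.0148% and 0.0154% of all counts.

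Across the classes, the ratio of aged-SP to young-SP counts ran from 0.827 in the network class over 0.681 (beaded), 0.563 (fibrillar), 0.486 (FACIT), 0.392 (multiplexin) and 0.369 (transmembrane) to 0.337 in the last class. The 4 classes that took the least of the collagen counts had the 4 lowest ratios. The order of the classes was not tested, since their genes are not replicates of a condition.

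Ratios between chains of the same trimer or type, and of Col3a1 to Col1a1, were taken within each library, so that the scaling between libraries drops out of them. Col1a2 to Col1a1, in FPKM, was 0.531 and 0.562 in the aged-SP libraries and 0.438, 0.465 and 0.454 in the young-SP libraries. The groups were apart, with the aged-SP mean at 0.547 ± 0.0220 (SD, n = 2) and the young-SP mean at 0.453 ± 0.0135 (SD, n = 3). Col6a2 to Col6a1 was lower, at 0.412 and 0.388 against 0.515, 0.500 and 0.526. Col6a3 to Col6a1 was lower too, at 0.124 and 0.117 against 0.151, 0.206 and 0.170. Col4a6 to Col4a5 was apart by a narrow margin, with 0.472 as the lower aged-SP value and 0.469 as the highest young-SP value. The ratios Col3a1 to Col1a1, Col5a2 to Col5a1, Col4a2 to Col4a1, Col4a4 to Col4a3 and Col8a2 to Col8a1 overlapped between the groups, with ratios of group means between 0.940 and 1.201. That of Col8a2 to Col8a1, 1.201, had no stable direction: it became 0.566 without aged-SP replicate 4, and leaving out aged-SP or young-SP replicate 1 gave 1.84 and 1.83. Others changed direction as well. Col3a1 to Col1a1 went from 1.04 to 0.933 without aged-SP replicate 1. Col4a2 to Col4a1 went from 0.940 to 1.01 without aged-SP replicate 4, and Col4a4 to Col4a3 from 0.969 to 1.11 without young-SP replicate 1. Col9a2 to Col9a1 was not formed because Col9a1 was at the floor. The ratios are given as a description, with no test.

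**Figure D5:**
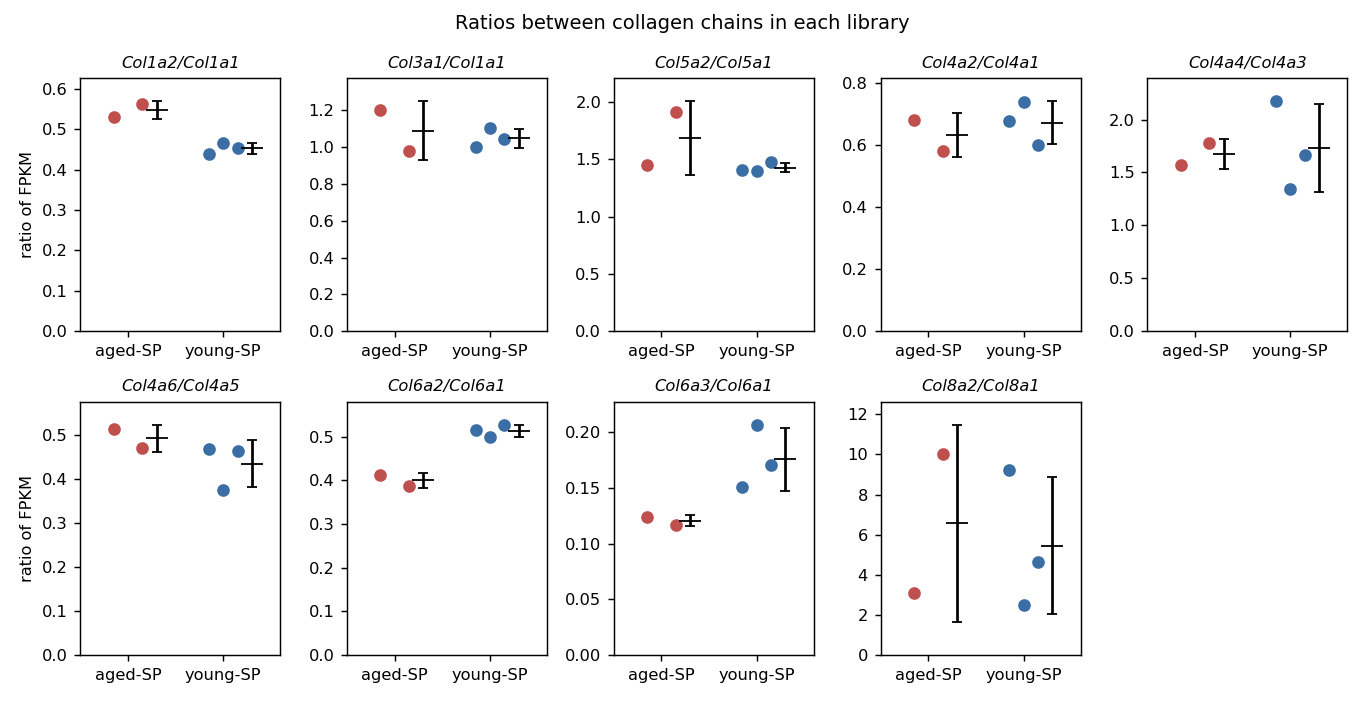
Ratio of FPKM between collagen chains in each library. Points are libraries, black marks the group mean ± SD, and each y axis starts at 0; the aged-SP points lie above the young-SP points for Col1a2/Col1a1 and below them for Col6a2/Col6a1 and Col6a3/Col6a1.

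Several collagen genes are neighbours in the genome, and their log2 fold changes are given side by side. Col3a1 and Col5a2 lie 24614 bases apart on chromosome 1 in opposite directions (log2 fold changes -0.86 and -0.82). Col4a4 and Col4a3 start 71 bases apart on chromosome 1 (-0.49 and -0.51), and Col4a6 and Col4a5 start 1308 bases apart on the X chromosome (-0.11 and -0.29). Col4a1 and Col4a2 overlap by 22 bases at their starts on chromosome 8 (-0.24 and -0.32). Col6a2 and Col6a1, 85161 bases apart on chromosome 10, were at -0.66 and -0.30. On chromosome 9, Col6a6 and Col6a5 lie 27917 bases apart (-1.71 and -1.51), and Col6a5 and Col6a4 28810 bases apart (-1.51 and -0.53). No comparison with other gene pairs was made.

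Genes that act on collagen chains were followed in 6 lists of 59 genes. Of 14 tested genes that hydroxylate or glycosylate the chains, 6 were lower and 3 were higher at an unadjusted p under 0.05 in edgeR, where 9.36% and 9.62% of all tested genes were. In lists of 5 to 14 genes, 1 gene is close to that share. Crtap, part of the prolyl 3-hydroxylase complex, was called lower by DESeq2 (56.6 and 61.0 CPM against 118, 112 and 137 CPM, log2 fold change -1.06, adjusted p = 0.0642 in edgeR and 4.47e-09 in DESeq2). Of its partners, P3h1 was at 44.9 and 37.9 CPM against 71.2, 78.6 and 67.9 CPM, and Ppib overlapped at 149.8 and 130.2 CPM against 149, 133 and 140.3 CPM.

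Of the 12 genes listed under collagen folding and export, 7 were lower and 0 were higher at an unadjusted p under 0.05 in edgeR. Their summed level was 3264 and 3696 CPM in the aged-SP libraries and 4565, 5118 and 5247 CPM in the young-SP libraries. Much of that sum was Sparc, at 1671 and 2209 CPM against 2300, 2774 and 2945 CPM. Fkbp14, a prolyl isomerase of the endoplasmic reticulum, was called lower by both tools, at 23.6 and 20.7 CPM against 70.7, 62.1 and 61.1 CPM (log2 fold change -1.55, adjusted p = 0.0430 in edgeR). Its exons lie under the opposite gene Plekha8 over 5.01% of their bases. Serpinh1, the collagen chaperone HSP47, was at 682 and 634 CPM against 1186, 1226 and 1192 CPM (log2 fold change -0.87, adjusted p = 0.0552 in edgeR and 5.76e-15 in DESeq2). In both genes the groups were apart.

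Of 8 tested genes of procollagen processing, 2 were lower and 0 were higher at an unadjusted p under 0.05, and DESeq2 called Adamts14, a procollagen N-propeptidase, lower (6.29 and 7.80 CPM against 19.8, 19.9 and 21.4 CPM, log2 fold change -1.53, adjusted p = 1.15e-10, and 0.0566 in edgeR). The cross-linking enzymes were mixed. Lox, the lysyl oxidase that joins collagen chains, lay higher (162 and 146 CPM against 102, 106 and 118 CPM, adjusted p = 0.107 in edgeR), while Loxl2 was called lower by DESeq2 (41.0 and 41.8 CPM against 66.05, 111 and 100.1 CPM, log2 fold change -1.16, adjusted p = 0.000342, and 0.104 in edgeR, with 5.70% of its exon bases under other genes). Among 9 collagen receptors, 0 were lower and 2 were higher at an unadjusted p under 0.05, and DESeq2 called Itga11, the integrin chain of fibroblasts that binds fibrillar collagen, higher (10.3 and 9.72 CPM against 4.88, 3.96 and 4.61 CPM, log2 fold change 1.16, adjusted p = 0.000600, and 0.0760 in edgeR). Among 5 collagenases and gelatinases, 0 were lower and 1, Mmp14, was higher at an unadjusted p under 0.05 (436 and 592 CPM against 334, 386 and 419 CPM), and 0 were called by either tool.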

How the data were processed

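Total RNA of whole uteri was sequenced in 5 libraries (aged-SP n = 2, young-SP n = 3). The sample titles gave the groups, and the number of per-sample columns not used was 0. Per the labels and the paper, reads were filtered and aligned with HISAT2 2.1.0, and the submitters' notes also list Bowtie2 2.2.3 and HTSeq 0.6.0; whether counting used the strand is not given in the sources used here. The authors deposited unnormalized counts per gene. The FPKM deposited by the authors equal these counts divided by gene length and library total (largest relative difference 1.9e-07), and were used for levels between genes and for chain ratios, never for tests. The authors' own DESeq2 columns (mean, fold change, p-value and adjusted p-value) were not used.

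Counts were compared with edgeR 4.0.16 (filterByExpr, TMM factors of 0.990 to 1.02, glmQLFit, glmQLFTest, two-sided; biological coefficient of variation 25.1%) in R 4.3.3 and adjusted by Benjamini-Hochberg over 17013 genes. The paper's methods name DESeq2; it was run here as an alternative (1.42.0), as was limma-voom (3.58.1). Calls needed an adjusted p below 0.05 and a log2 fold change beyond 1 in size. Standard errors are the log2 fold change divided by the square root of edgeR's F. CPM use TMM library sizes, and log2 CPM a prior count of 2. Each pair of replicates differed by more than sampling noise (chi-square per degree of freedom 18.5 to 48.0). The floor was 3 counts and covers counting error only.

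Named are collagens called by edgeR or DESeq2, the 3 of each class with the highest FPKM, those above all young-SP libraries in both aged-SP libraries and members of the chain ratios, 34 in all; other collagens are given by range or fold change, and genes of 6 pathway lists by call. Genes with other values (marker genes, P3h1, Ppib, Serpinh1, Lox, Mmp14, Col9a3, Col20a1) were chosen after their values were seen. The members and all lists were chosen with earlier results of these data known. Coding sequences and gene overlaps are from GENCODE M21, and figures were drawn with matplotlib 3.10.9 in Python 3.11.15.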

Additional observations from a re-analysis of the deposited data

How the results depend on the processing

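Of the 33 named and tested collagens, 31 kept their direction under all alternatives. The exceptions were Col8a1 and Col8a2, with log2 fold changes of 0.10 and -0.12 under a replicate block. With libraries left out, Col8a1 ran from -0.73 to 0.17 and Col8a2 from -0.36 to 0.44, and both turned when aged-SP replicate 4 (0.17, -0.36) or young-SP replicate 2 (0.053, -0.076) was left out. Of the values of named genes under alternatives, 353 kept their side of the threshold, 29 passed it newly and 6, all of Col11a1, fell short. DESeq2's Wald test called 632 genes of the table, 14 of them collagens, and edgeR without a filter on low counts called 203 and 6, against 25 and 1. With each library left out in turn, edgeR called 1 to 578 genes and 0 to 9 collagens, and the median log2 fold change of the collagens lay between -0.81 and -0.61; where 1 aged-SP library was left, it was assumed to vary like the young-SP libraries. Without young-SP replicate 1, the 9 called collagens were Col5a1, Col9a2, Col11a1, Col12a1, Col14a1, Col15a1, Col18a1, Col22a1 and Col28a1. The 24 collagens lower at an unadjusted p under 0.05 became 19 to 27, and the 26 without overlap 27 to 31, where 22.5% to 32.0% of all tested genes had none. Deviations of samples with the same replicate number correlated at 0.152 and 0.136, but with 2 pairs the numbers were not taken as pairing; with the replicate block edgeR called 2 genes, 0 of them collagens. For each of the 14 collagens called by DESeq2 that tool gave the lowest adjusted p of all settings, and the highest lay between 0.214 and 0.443. DESeq2 size factors, library size alone, a minimum of 10 counts in every library and the adjusted p alone called Col11a1 and no other collagen, while limma-voom called 1 other, Col15a1 (adjusted p = 0.0485). Without aged-SP replicate 4 the 2 called collagens were Col6a6 and Col15a1 (adjusted p = 0.0389 and 0.0447 in edgeR). The DESeq2 counts without each library, the overlap counts without each library the ratios without each library and the marker sums without 1 gene were added after the data had been seen. At these depths, genes at 3 counts or fewer could not be compared.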
